A study of Mus musculus with 12 samples.

Results

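Imprinted growth genes were examined in humeri, the long bones of the upper forelimb, from E14.5 mouse embryos with and without Runx2, a transcription factor needed for bone formation. A list of 36 imprinted genes was matched by symbol to the probe sets of array types A, B and C, taking only probe sets annotated with exactly 1 gene. This gave 33 of 15964 genes and 69 of 36701 probe sets, of which array A held 39, B 16 and C 14. H19, Snrpn and Zim1 had no such probe set and are not analysed here. The genes were chosen by symbol with the genotype differences in signal on these same arrays already known, so the genotype values below are descriptions, and their adjusted p-values are no independent support. The control group was wild type and the other group Runx2 -/-; both were at E14.5, and no treatment, strain or sex is given in the labels. Each genotype had 2 RNA pools, numbered 1 and 2, each combining roughly 75 humeri for the wild type and 60 for the Runx2-null, so the spread between single embryos was not measured. Signals below are always in the order wild type 1, wild type 2, Runx2-null 1, Runx2-null 2.

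Imprinted genes are read mainly from the copy inherited from one parent, and many of them act on fetal growth. In general, paternally expressed genes such as Igf2 and Dlk1 promote growth or keep progenitor cells immature, and maternally expressed genes such as Igf2r, Grb10 and Phlda2 restrain growth. IGF2 is a main growth factor of the fetus and is made by cartilage and other mesenchymal tissue. Expression arrays sum both parental copies, so nothing here measures imprinting itself. Total RNA of a whole bone was used, so fewer cells of a type and less RNA per cell cannot be told apart.

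All 12 arrays had median signals between 37.5 and 60.4 intensity units. The pools numbered 1 and those numbered 2 were scanned with different settings, on all 12 arrays, and the number is therefore used as a block beside the fit without one. Over 66 control probe sets shared by the array types, the type C array labelled wild type 2 correlated at a mean of 0.783 with the type A arrays numbered 1 and at -0.804 with those numbered 2. The type C array labelled Runx2-null 1 gave -0.679 and 0.693, so both went against their replicate number, while the other 10 arrays did not. On type C as labelled, both wild-type arrays thus grouped with number 1 and both Runx2-null arrays with number 2. Genotype and this grouping cannot be told apart there. Values on type C are therefore given as labelled, no direction is drawn from them, and counts are given for A and B as well as for all types. The targeted gene is not analysed here. The cartilage marker list summed to 19900, 24160, 23020 and 24350 units. Its median log2 difference was -0.02, with 6 of 13 tested genes above 0. The osteoblast list summed to 2914, 3662, 230 and 276.6 units. The hypertrophic chondrocyte list, which shares Ibsp, Pth1r and Alpl with it, summed to 3160, 4454, 226.8 and 325.5 units. The osteoclast list summed to 1791, 1885, 248.5 and 382 units. The tendon and fibroblast list was higher in the Runx2-null pools, with sums of 7144, 5798, 8009 and 7229 units and a median log2 fold of 0.34. Of its 9 tested genes, 3 were called higher and 1 lower with the block. Without the block 0 were called (limma adjusted p = 0.334 to 0.741 for those 4). Its lowest signal in any pool was 16.3 units, and its part in the values of the imprinted genes was not tested.

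Most tested probe sets of the listed genes on arrays A and B had slightly higher signals in the Runx2-null humeri. The highest single values came from Ppp1r9a and Meg3. A separate list of other imprinted genes did not lean this way. With 1 probe set per gene, 9 of its 18 tested genes were above 0, with a median log2 difference of 0.01. Of the 69 probe sets, 53 probe sets of 27 genes passed the filter on dim signals, 45 of them on A and B. Over those 45 the median log2 difference, Runx2-null minus wild type, was 0.20 (range -0.53 to 1.24), with 36 above 0 and 9 below. The same median over all 15601 tested probe sets of A and B was 0.01. Within replicate number 1 the 45 probe sets had a median of 0.18 and within number 2 of 0.20, against 0.01 and 0.03 for all tested. Over all 3 array types the members' median of 0.20 depended on single pools: it was 0.29 without wild type 1, 0.07 without wild type 2, 0.15 without Runx2-null 1 and 0.34 without Runx2-null 2. Quantile normalization gave 0.12, also over all 3 types. These values include type C as labelled, and pools were not left out on A and B alone.

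No member probe set passed an adjusted p of 0.05 in limma without the block, 0 of 53, against a background of 0.0259% of all tested probe sets. At an unadjusted p under 0.05, 4 of 53 passed against a background of 7.73%, and on A and B 3 of 45, of Meg3 and Ppp1r9a, against 2.06%. Backgrounds over all types include C, where labelled genotype and the control probe set grouping cannot be told apart. With the replicate number as a block, 7 of 53 passed in limma against a background of 2.18%. All 7 lay on A or B and were higher in the Runx2-null pools, where the background of calls in that direction was 0.904%, and 0 of 45 were called lower against a background of 1.29%. They belonged to Meg3, Dlk1, Ppp1r9a, Igf2, Peg3 and Nnat. On A and B with the block, quantile normalization left 3 of them, for Meg3 and Ppp1r9a, and eBayes without a trend left 0.

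Both within-replicate differences were above 0 for 26 of the 45 probe sets, from 19 genes, against 32.1% of all tested probe sets of A and B. Both were below 0 for 4, of Copg2, Gnas, Phlda2 and Trappc9, against 28.0%. Both Runx2-null signals exceeded both wild-type signals in 13 of 45, from 9 genes, against a background of 13.6%. The reverse held for 1 of 45, of Copg2, a coatomer subunit, against 11.7%. The members were chosen with this contrast in view, so these shares are a description of the list.

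**Figure D1:**
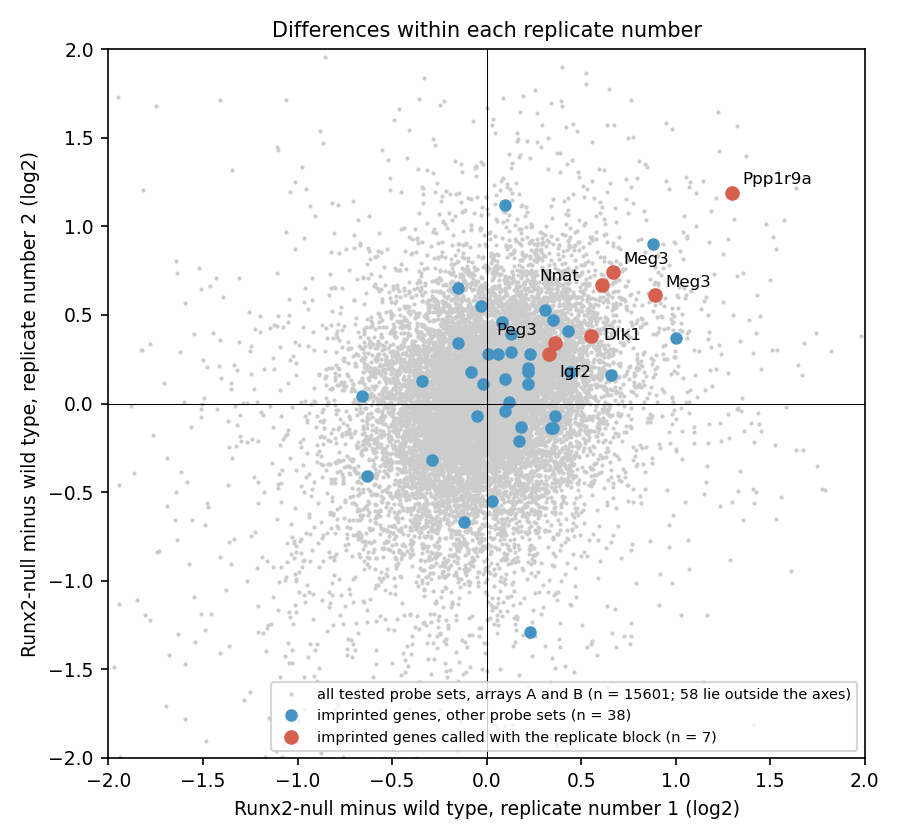
Difference between genotypes (Runx2-null minus wild type, log2 of signal plus pseudocount) within replicate number 1 (x axis) and within number 2 (y axis), for all tested probe sets of arrays A and B (grey), the imprinted genes (blue) and those called with the replicate block (red). The 7 called probe sets lie in the upper right, Ppp1r9a farthest out at 1.30 and 1.19, and 58 of the 15601 probe sets lie outside the axes.

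RUNX proteins bind DNA at a short core, searched here as TGNGGT on both strands, in RefSeq promoter windows of mouse assembly GRCm38.p6 that run from 250 bases before to 50 after a transcript start. Of the 33 genes, 28 had a window, 46 windows in all. At least 1 match lay in 25 of the 46 windows (54.3%), from 18 genes, against 45.8% of 32851 windows of all genes. Some windows overlap, as those of Peg3 and Usp29 do by 263 bases, so the 46 are not separate promoters. The members' windows had a median GC content of 60.8% against 52.7%. Windows of the 3 genes with the lowest p-values with the block are printed because their signals were higher together, with Nnat beside them as a called gene without a match. All 4 are on the plus strand, and capitals mark matches to TGNGGT or to its reverse complement. The printed Meg3 window (chr12:109540746-109541045) holds 2 matches, both on the minus strand, and the Dlk1 window (chr12:109452573-109452872) 2 on the plus strand. A second Meg3 window, not printed, also holds 2. The upstream Ppp1r9a window (chr6:4902725-4903024) holds 4, and the Nnat window (chr2:157559828-157560127) 0. The other Ppp1r9a window, not printed, holds only 1, so the count depends on the window chosen. N stands for any base, so TGGGGT counts as a match as well as TGTGGT, and a match need not be a RUNX site. A match is only these letters in this window, and binding was not measured.
Meg3: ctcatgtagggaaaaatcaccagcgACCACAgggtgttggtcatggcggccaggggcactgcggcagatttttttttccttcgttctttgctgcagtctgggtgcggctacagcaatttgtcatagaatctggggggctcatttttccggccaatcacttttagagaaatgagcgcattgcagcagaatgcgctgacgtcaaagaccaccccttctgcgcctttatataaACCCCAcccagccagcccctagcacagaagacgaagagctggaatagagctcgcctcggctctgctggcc
Dlk1: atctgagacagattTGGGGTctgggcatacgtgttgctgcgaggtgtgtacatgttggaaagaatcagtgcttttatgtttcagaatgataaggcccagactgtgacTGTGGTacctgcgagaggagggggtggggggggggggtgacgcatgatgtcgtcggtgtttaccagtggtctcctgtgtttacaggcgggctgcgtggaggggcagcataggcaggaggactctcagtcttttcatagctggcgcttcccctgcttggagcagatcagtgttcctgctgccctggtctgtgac
Ppp1r9a: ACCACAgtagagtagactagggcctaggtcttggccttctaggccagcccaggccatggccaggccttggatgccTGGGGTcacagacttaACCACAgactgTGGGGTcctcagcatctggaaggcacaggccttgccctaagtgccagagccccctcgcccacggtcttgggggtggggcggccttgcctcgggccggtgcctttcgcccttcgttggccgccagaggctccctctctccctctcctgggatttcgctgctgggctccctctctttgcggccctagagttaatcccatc
Nnat: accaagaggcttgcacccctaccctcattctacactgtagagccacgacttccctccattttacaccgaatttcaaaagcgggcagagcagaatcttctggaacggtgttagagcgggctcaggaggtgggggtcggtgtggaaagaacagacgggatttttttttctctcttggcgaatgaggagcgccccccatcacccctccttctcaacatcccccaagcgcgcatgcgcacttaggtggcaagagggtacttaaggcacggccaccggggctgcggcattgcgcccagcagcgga

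Meg3 is grouped here with the growth signalling genes, although it is a maternally expressed long non-coding RNA of the Dlk1-Dio3 region on chromosome 12. It gave signals of 3114.7, 2831.4, 5771.6 and 4334 units on array A (probe set 160172_at). Both Runx2-null pools were brighter than both wild-type pools, with means of 5053 ± 1020 against 2973 ± 200 units (SD, n = 2). The log2 difference was 0.75, a fold of 1.68 (SE 0.18, limma adjusted p = 0.30 without the block and 0.000195 with it), and it was 0.89 within replicate number 1 and 0.61 within number 2. A second Meg3 probe set on A, 160173_at, read 2233.1, 1139.9, 3550.5 and 1914.9 units, and its groups overlapped, with both pools numbered 2 dimmer. Its log2 difference was 0.71 (SE 0.42 without the block and 0.08 with it, limma adjusted p = 0.886 and 0.000234), with 0.67 and 0.74 within the numbers.

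On array B, Meg3 probe set 109661_at read 200.4, 122.5, 379 and 239.7 units, without overlap, with a log2 difference of 0.89 (limma adjusted p = 0.0507 with the block). Probe set 164148_at read 173.6, 136.2, 238.3 and 185.4 units, also without overlap, with 0.42 (adjusted p = 0.32). The dimmest one tested on B, 107512_at, went the other way at 78, 54.3, 44.4 and 56.4 units, with overlapping groups and -0.31 (adjusted p = 0.648). Of the 5 Meg3 probe sets tested on A and B, 4 were thus higher in the Runx2-null pools within both replicate numbers. As labelled on C, 136641_at read 429.2, 820.1, 842.3 and 1277.6 units, 166581_r_at 525, 450.9, 522.6 and 599.8, and 138993_r_at 67.5, 116.4, 28 and 37.9. The C probe sets disagree among themselves, with log2 differences of 0.79, 0.20 and -1.21 as labelled.

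Dlk1, the paternally expressed membrane protein with EGF-like repeats that lies in the same region and marks progenitor cells, read 4155.8, 3216.5, 6091.6 and 4177.5 units on A. Both Runx2-null pools lay above both wild-type pools, the nearest of them by a small margin, with means of 5135 ± 1350 against 3686 ± 664 units (SD, n = 2). The log2 difference was 0.46, a fold of 1.38 (SE 0.23, limma adjusted p = 0.788 without the block and 0.00482 with it), with 0.55 and 0.38 within the numbers. A dim Dlk1 probe set on B read 60.8, 44.2, 59.2 and 70.7 units, with overlapping groups and a log2 difference of 0.26 (adjusted p = 0.704 with the block). On C, as labelled, Dlk1 read 289.5, 234.4, 239.7 and 268.8 units, and its values overlapped. Over the 7 tested A and B probe sets of Meg3 and Dlk1 the median was 0.46 (range -0.31 to 0.89). Dio3, the deiodinase of the same region, had no tested probe set.

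**Figure D2:**
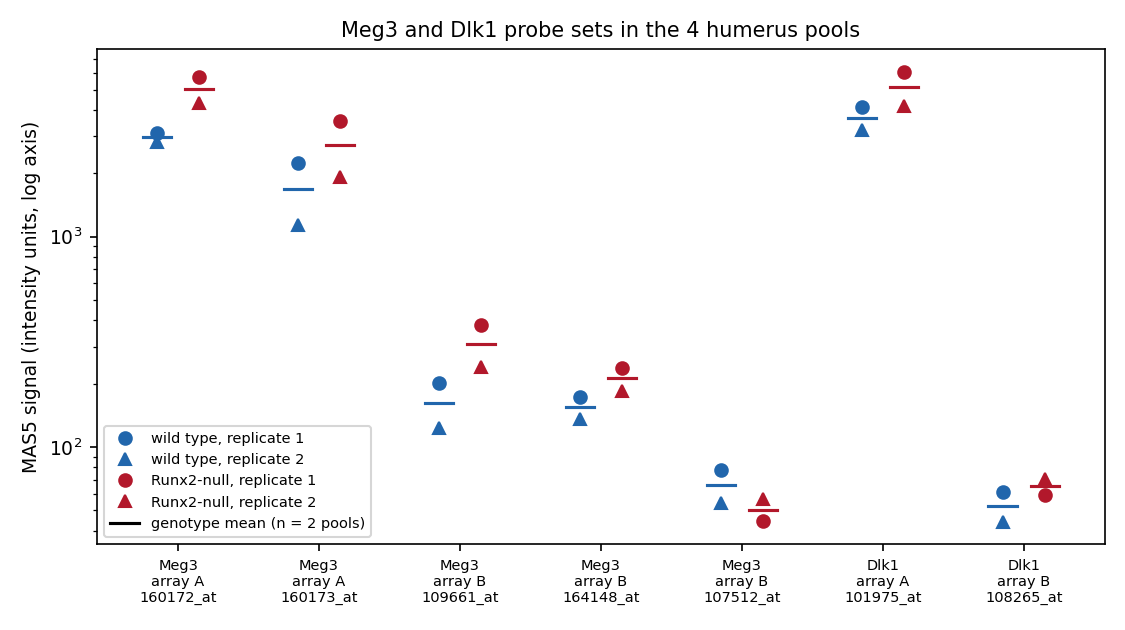
Signal (intensity units, log axis) of the Meg3 and Dlk1 probe sets tested on arrays A and B in each of the 4 pools (circles for replicate number 1, triangles for 2), with a bar at each genotype's mean of 2 pools. For Meg3 160172_at the Runx2-null pools read 5771.6 and 4334 units against 3114.7 and 2831.4 in the wild type, and Meg3 107512_at, at 44.4 to 78 units, does not follow.

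Igf2, the fetal insulin-like growth factor, read 4534.9, 3409.7, 5696 and 4137.8 units. The groups overlapped, since the wild-type pool numbered 1 was brighter than the Runx2-null pool numbered 2, and within each number the Runx2-null pool was the brighter. Its log2 difference was 0.30, a fold of 1.23 (SE 0.22, limma adjusted p = 0.965 without the block and 0.0377 with it), with 0.33 and 0.28 within the numbers. The other Igf2 probe set was dim, at 2 to 4.5 units, and was not tested. Igf2r, the receptor that carries IGF2 to the lysosome, read 508.4, 805, 546.2 and 781.9 units. It followed the replicate number and not the genotype, with a log2 difference of 0.03 (limma adjusted p = 0.908 with the block).

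Grb10, an adaptor that damps insulin and IGF receptor signalling, separated the replicate numbers far more than the genotypes. Probe set 93691_s_at read 1098.3, 53, 1082.6 and 57.6 units, and 93690_at read 759.3, 58.9, 800.6 and 83.5 units. In both genotypes the pool numbered 2 was dimmer, by log2 values of -4.20 and -4.08 for the first and -3.54 and -3.16 for the second. Of all 15601 tested probe sets of A and B, 3 were lower by at least 3 log2 units in both genotypes, a background of 0.0192%, and 2 of them were these. The genotype differences of 0.04 and 0.27 were small beside this gap. Leaving out wild type 1 sets the dim wild type 2 alone against both Runx2-null pools, and the log2 values of 93691_s_at then became 2.14, and -2.06 without wild type 2, so they follow the gap between the numbers. The third Grb10 probe set on A was not tested, at 5.0 to 9.1 units. On C, as labelled, Grb10 read 540.1, 344.1, 170.5 and 425.1 units.

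The skeletal muscle marker list split the same way as Grb10. Its summed signal was 4940, 1403, 5753 and 1122 units, a ratio of number 1 over number 2 of 3.52 in the wild type and 5.13 in the Runx2-null. All 17 of its 17 markers were lower in the pool numbered 2 in both genotypes, and its median log2 genotype difference over 15 tested genes was 0.00. On A and B a control probe set for the 5' part of 18S RNA also followed the numbers, at 446.1, 38.5, 542.5 and 31.3 units on A and 848.6, 68.9, 766.7 and 68.7 on B. On C it did not, and as labelled it split by genotype at 1545.7, 2019, 172.8 and 129.1 units. Scan settings differed between the numbers too. The part of the muscle markers, the 18S control or the scans in the Grb10 values was not tested. Among the other members, Gnas probe set 92672_at (143.2, 23, 138.5 and 21.5 units) was dimmer in number 2 by log2 values of -2.32 and -2.35. Peg10, a retrotransposon-derived gene needed in the placenta, went the opposite way at 39.6, 147, 37 and 167.2 units, brighter in number 2 by 1.72 and 1.99.

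**Figure D3:**
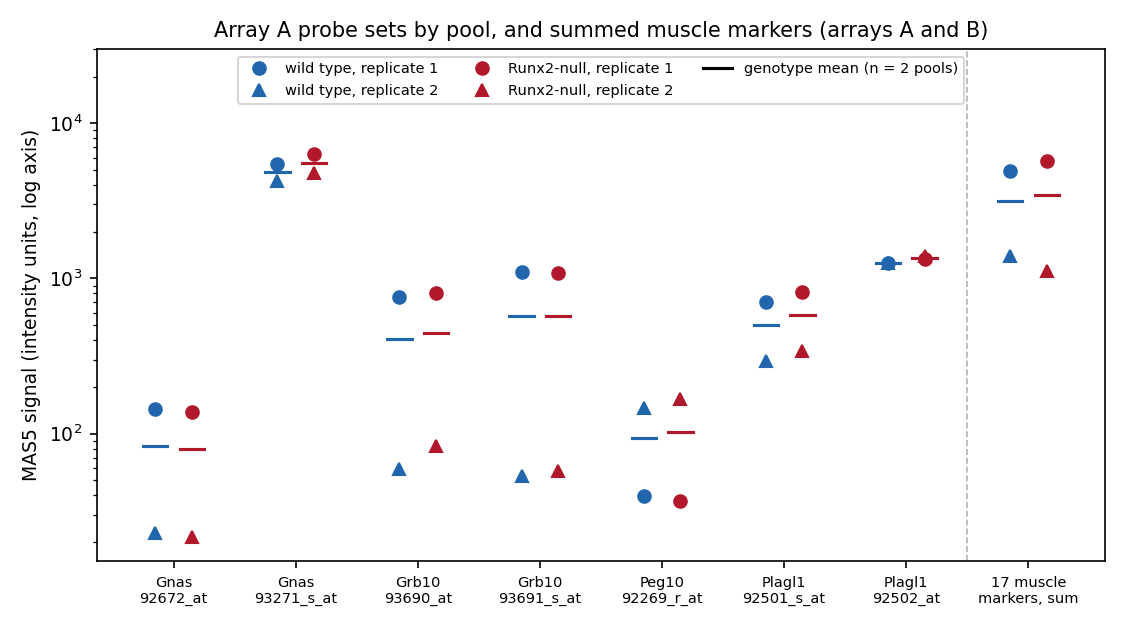
Signal (intensity units, log axis) in the 4 pools (circles for replicate number 1, triangles for 2, bars for genotype means) of the tested array A probe sets of Gnas, Grb10, Peg10 and Plagl1, with the sum of 17 muscle markers at the right. Grb10 lay between 53 and 83.5 units in the pools numbered 2 of both genotypes and between 759.3 and 1098.3 in those numbered 1, in its 2 tested probe sets, while Peg10 was brighter in number 2.

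Gnas, which encodes the stimulatory G protein alpha subunit and other products, was among the brightest members on A, with 5455.8, 4229, 6342.2 and 4799.4 units from probe set 93271_s_at. The groups overlapped, with a log2 difference of 0.20 (limma adjusted p = 0.142 with the block). On B, Gnas read 388, 372.6, 437.7 and 319.3 units, a difference of -0.02, and probe set 92672_at gave -0.06. Phlda2, which limits placental growth, read 77, 139.2, 47.4 and 102.7 units and was lower in the Runx2-null pool within both numbers. Its log2 difference was -0.52 (adjusted p = 0.115 with the block), with overlapping groups.

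Nuclear regulators had a median log2 difference between the genotypes of 0.11 over 10 tested probe sets of 5 genes. Peg3, a paternally expressed zinc finger protein, read 1981.9, 2533.3, 2540.7 and 3204.6 units from 101451_at. Both Runx2-null pools were brighter than both wild-type pools, the closest pair being almost equal, and the log2 difference was 0.35, a fold of 1.27 (SE 0.20, limma adjusted p = 0.877 without the block and 0.0263 with it). Within the replicate numbers it was 0.36 and 0.34. Peg3 probe set 96765_at read 2831.3, 2948.9, 3103.8 and 3607.8 units, also without overlap, at 0.21 (adjusted p = 0.158 with the block). The dimmer 161316_f_at overlapped at 299.8, 303.2, 235.3 and 331.3 units, with -0.11.

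Plagl1, a zinc finger transcription factor, gave probe sets that disagreed. The A probe sets read 1249.8, 1260.8, 1337.5 and 1386.4 units and 702.9, 293.3, 818.9 and 338.2 units, with log2 differences of 0.12 and 0.21. The B probe set 163814_r_at read 1194.9, 1410.7, 1408.1 and 569.9 units, so that only Runx2-null 2 was low, and its difference was 0.23 within number 1 and -1.29 within number 2. On C, as labelled, Plagl1 read 9312, 8932.1, 9935.2 and 11005.3 units. Necdin (Ndn), a MAGE family protein of the Prader-Willi region, read 587, 698.1, 746.4 and 631 units and 518.7, 432.7, 662.4 and 391 units, both overlapping and both at 0.10. Magel2 of the same family gave 0.07, and the trophoblast factor Ascl2, at 6.0 to 42.4 units on A, gave 0.61 with overlapping groups.

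Of the members at the membrane, in the matrix or in trafficking, neurabin (Ppp1r9a), a partner of protein phosphatase on actin, had the largest difference of all 45 probe sets. It read 213.5, 399.8, 543.1 and 931.3 units on B. Both Runx2-null pools were above both wild-type pools, and both pools numbered 2 were brighter than their number 1 partner, with means of 737 ± 274 against 307 ± 132 units (SD, n = 2). The log2 difference was 1.24, a fold of 2.37 (SE 0.42, limma adjusted p = 0.473 without the block and 0.00894 with it), and it was 1.30 and 1.19 within the numbers. Nnat, a small membrane proteolipid, read 101.8, 54.6, 158.5 and 91.1 units. The groups overlapped, with both number 2 pools dimmer, and the log2 difference was 0.64, a fold of 1.56 (SE 0.40, limma adjusted p = 0.912 without the block and 0.0498 with it), with 0.61 and 0.67 within the numbers.

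Sgce, epsilon-sarcoglycan, read 257, 257.4, 409.8 and 288.9 units, with no overlap and a log2 difference of 0.41 (limma adjusted p = 0.109 with the block). Cd81, a tetraspanin, read 552.6, 527.3, 749.6 and 599.9 units, also without overlap, at 0.31 (adjusted p = 0.115). Mest, a hydrolase-fold protein of the endoplasmic reticulum, read 2146.9, 2377.3, 2232.2 and 2886 units, overlapping, at 0.17 (adjusted p = 0.304). These genes did not pass with the block either. Trappc9, a subunit of a vesicle trafficking complex, was lower at 393.5, 346.3, 360.5 and 213.2 units, overlapping, with a log2 difference of -0.39 (adjusted p = 0.361). Copg2 read 191.2, 157.8, 154.4 and 123.8 units, with both Runx2-null pools below both wild-type pools and a difference of -0.30.

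Asb4, an ankyrin repeat and SOCS box protein of the ubiquitin system, is a neighbour of Sgce and Ppp1r9a on chromosome 6 and read 1109.9, 1309.1, 1416.3 and 1812.7 units from 163075_at. A second probe set, 163555_at, read 309.6, 373.7, 632.5 and 486.2 units. Neither overlapped between genotypes, and the log2 differences were 0.41 and 0.68 (limma adjusted p = 0.213 and 0.124 with the block). With Sgce, Ppp1r9a and Peg10, the 5 tested probe sets of this chromosome 6 region ran from 0.05 to 1.24, with a median of 0.41. Ube3a, the ubiquitin ligase of the Prader-Willi region, read 83.2, 108, 97.8 and 116.7 units on A, overlapping, at 0.16. Its B probe sets, at 78.5, 33.4, 69.5 and 59.9 units and at 100.7, 50.8, 111.3 and 70.4 units, gave 0.25 and 0.26 and overlapped too.

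Transporters and metabolic enzymes had a median log2 difference of 0.14 over 6 tested probe sets. Slc22a18, a solute carrier, read 43.3, 36.2, 51.9 and 45.5 units on A, without overlap, at 0.25 (limma adjusted p = 0.604 with the block), and 797.5, 1010, 835.3 and 821 units on C as labelled. The potassium channel gene Kcnq1 gave 0.42, Gatm, an enzyme of creatine synthesis, 0.14 and 0.15, the amino acid transporter Slc38a4 -0.26 and 0.02, and Impact, an inhibitor of the kinase GCN2, 0.09, all with overlapping groups. Ampd3, Dio3, Mkrn3, Rasgrf1, Tfpi2 and Usp29 had only untested probe sets, 8 in all, with signals from 0.2 to 24.0 units. No difference between the genotypes is given for them. Of the 69 probe sets, 16 were not tested.

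**Figure D4:**
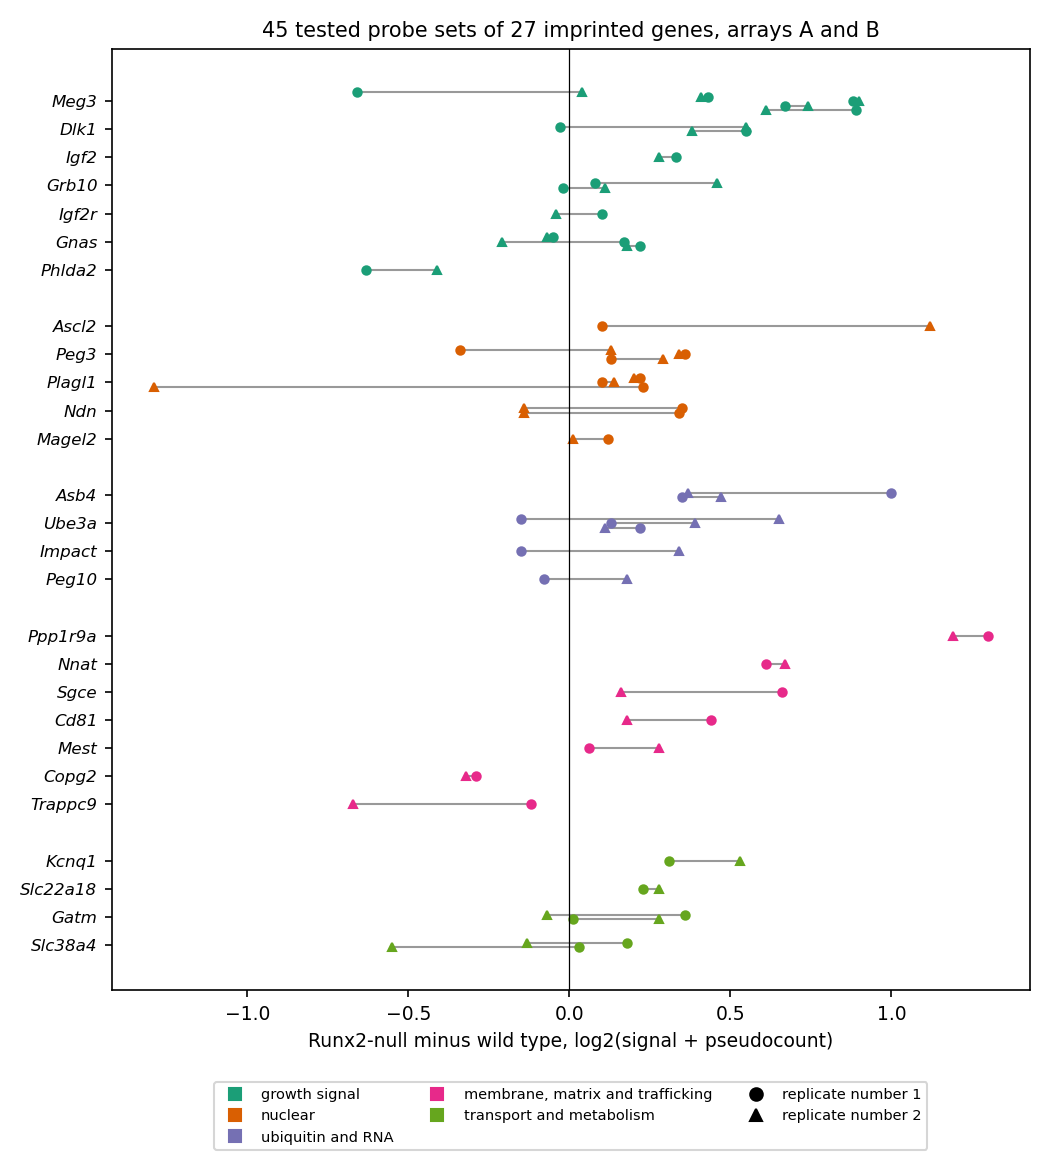
Log2 difference between genotypes (Runx2-null minus wild type) within replicate number 1 (circles) and number 2 (triangles) for the 45 tested probe sets of 27 imprinted genes on arrays A and B, coloured by role, with a line joining the 2 values of a probe set. Ppp1r9a, Nnat and most Meg3 probe sets lie to the right with short lines, while Meg3 107512_at runs from -0.66 to 0.04. Plagl1 has the longest line, from 0.23 to -1.29.

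Ordered by the parental copy known to be expressed, the 26 tested A and B probe sets of 15 maternally expressed genes had a median log2 difference of 0.25, and the 19 of 12 paternally expressed genes 0.12. The imprinting of several of these is known only in placenta or brain, and the difference between both classes was not tested. The 22 member probe sets over the 90th percentile of signal on their array had a median of 0.21, against 0.02 for all 2485 such probe sets, and the 23 dimmer ones had 0.15.

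Genes of the IGF and insulin axis, from a separate list that holds none of the members, were mostly not called. With 1 probe set per gene on A or B, 18 of 26 were tested, their median log2 difference was -0.09, and limma called 2 higher and 1 lower with the block and 0 without it. Igf1, which acts on growth before and after birth, read 1339.3, 754.5, 2159.9 and 1547.2 units, without overlap, with a log2 difference of 0.85 (SE 0.16 with the block, limma adjusted p = 0.737 without it and 0.035 with it). Htra1, a protease that cleaves IGF binding proteins, read 382.3, 432.4, 574.4 and 575.1 units, without overlap, at 0.49 (adjusted p = 0.646 without the block and 0.0211 with it). Igfbp3, an IGF binding protein, read 371, 102.7, 200 and 75.3 units, overlapping, at -0.64 (adjusted p = 0.999 without the block and 0.0355 with it).

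Genes that set or keep imprints gave a median of 0.05 over 18 of 24 genes tested, with 0 called with the block in limma. The lowest p-values there without the block were those of Smchd1, a chromatin protein of the inactive X, at 0.55 with 349.4, 197.8, 349.7 and 438.9 units, and of Ehmt1, a histone methyltransferase, at 0.44 with 435.3, 402.6, 525.5 and 625.7 units. Neither had overlapping groups, and neither passed with the block (limma adjusted p = 0.322 and 0.25). For Smchd1 the closest pair was almost equal, and the difference was 0.0 within number 1 and 1.1 within number 2. Other imprinted genes gave a median of 0.01 over 18 of 35 tested, with 1 called higher and 1 lower with the block and 0 without it. Decorin (Dcn), a matrix proteoglycan imprinted in mouse placenta that is also on the tendon and fibroblast list, read 621.4, 632.8, 960.4 and 1229.1 units, without overlap, at 0.79 (limma adjusted p = 0.334 without the block and 0.000793 with it). Ano1, a calcium-activated chloride channel, read 169.9, 225.4, 80.6 and 59.1 units, with both Runx2-null pools lower and a log2 difference of -1.35 (adjusted p = 0.232 without the block and 0.0333 with it).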

How the data were processed

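Total RNA of 4 humerus pools, 2 per genotype, was hybridised to 3 short-oligonucleotide array types, giving 12 arrays. The authors deposited linear array intensity values, 1 per probe set, made with MAS5 per the submitters' processing notes; the sources used here do not give its version. The 2% trimmed mean of every deposited array was 100.0 to 100.1 units, which shows a scaling of whole arrays, and none was added. Signals were compared within a probe set and array type. Precision is limited by the number of arrays.

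Genes were named from the platform annotation: of 36701 probe sets other than the 198 controls, 29131 had 1 symbol, 724 several and 6846 none listed here. Differences were taken on log2(signal + pseudocount), Runx2-null minus wild type, with pseudocounts of 7 (A), 13 (B) and 10 (C), each type's rounded 20th percentile. This scale understates changes of dim signals. Testing required that 2 or more of the 4 arrays had a signal above their 40th percentile, which left 23193 (A 7745, B 7856, C 7592). The test was lmFit and eBayes with a trend in limma 3.58.1 (R 4.3.3), 1 fit per array type, with Benjamini-Hochberg adjustment over all types at 0.05, without a block and with the replicate number as a block. With the block, 1 residual degree of freedom was left per probe set and the prior held 12.7 on A and 7.74 on B, so its p-values rest mostly on other probe sets. On simulated data, unchanged probe sets made up 32.4% of the blocked fit's calls, a larger share than the 5.0% its threshold allows. The fit without the block called none of the changed ones. Type C was simulated with replicate gaps drawn from A and B, so the 32.4% describes the simulation and not the real calls. P-values cover only the spread between these pools.

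Replicate numbers equalled 2 scan batches in the array files. After subtracting genotype means, same-numbered arrays correlated with r of 0.764 (A), 0.595 (B) and 0.06 (C). Alternatives covered scaling, pseudocount, filter, variance model, adjustment, array types, probe set suffixes and each pool left out. Members and gene lists were chosen with earlier results of these data known. Values in every pool are given for members called with or without the block, with a brightest probe set over the 90th percentile of its array type, or with at least 3 tested probe sets. A few other members were added after their values were seen. From each pathway list up to 4 called genes, or else the 2 with the lowest p without the block, are named. Probe sets with several symbols are not reported, and no column of the value tables was left unused (0).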

Additional observations from a re-analysis of the deposited data

How the results depend on the processing

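Without the block, 6 of all probe sets were called. The count was 11 with quantile normalization or a 60th percentile filter, 10 with median centring or without suffixed probe sets, 2 with a pseudocount of 1 or without a trend, 12 with a pseudocount of 32, 99 with adjustment within array types, and 5 to 22 when 1 pool was left out. The replicate block gave 505, and on A and B alone 343, 295 with quantile normalization and 11 without a trend. Counts over all types, such as 505 and 99, include type C, where labelled genotype and the control probe set grouping cannot be told apart. Member probe sets called were 0 without the block, and 7 with the replicate block on all types and 7 on A and B, of which quantile normalization left 3 and eBayes without a trend 0. Leaving out 1 pool gave 0 to 2 members. The 2 are Grb10 probe sets without wild type 1, where a lone wild-type pool is assumed to vary like the other group; the value of 93691_s_at, 2.14 there and -2.06 without wild type 2, follows the gap between replicate numbers. The median log2 difference over members was 0.20 and moved to 0.12 with quantile normalization, 0.14 without the filter, 0.25 without suffixed probe sets, 0.14 with block and quantile normalization on A and B, 0.13 within replicate number 1, 0.14 as a mean per gene, and 0.07 to 0.34 with 1 pool left out. Alternatives on A and B with the block beyond the planned one were chosen after seeing the data. For single genes, 1 chosen probe set each was followed over all alternatives. Meg3 (160172_at) ran from 0.54 to 0.96, Ppp1r9a from 0.81 to 1.68, Dlk1 from 0.19 to 0.74, Igf2 from 0.07 to 0.53, Peg3 from 0.17 to 0.52 and Nnat from 0.23 to 1.05. Gnas, Grb10, Igf2r, Mest, Ndn, Plagl1 (163814_r_at) and Ube3a changed sign under at least 1. Other probe sets of these genes can differ, as Meg3 107512_at did at -0.31. Depth is not recorded for arrays; 16 of the 69 member probe sets were too dim to test, and 2 arrays of type C go against their number.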
